A study of Mus musculus with 7 samples.

Results

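Keratin filaments are tied to cell borders and to the rest of the cytoskeleton by desmosomal proteins and plakins, and 10 of the genes that encode them were examined in pancreatic ductal adenocarcinoma (PDA) tumors with and without an intact *Krt19* gene. The 10 genes are *Dsp*, *Jup*, *Pkp1*, *Pkp2*, *Pkp3*, *Dsg2*, *Dsc2*, *Plec*, *Ppl* and *Evpl*. They were taken by symbol from a deposited table of 38026 genes, and each symbol matched 1 row. All 10 exceeded the filter on low values. Bulk RNA-seq had been performed on 7 subcutaneous (s/c) tumors, collected 2 weeks after inoculation into C57BL/6 mice that received no treatment. The mice were bought at 6 wk of age and housed for 2 wk before an experiment. Both groups of tumors grew from the same line, 1242, which came from a tumor of a KPC mouse, with a Trp53 R172H allele switched on by Pdx1-Cre. The cells of both groups had been transduced with a lentivirus carrying Cas9 and a guide RNA, which was a scrambled guide in 4 tumors (sgScramble, numbered 1 to 4) and a guide against *Krt19* in 3 tumors (sgKrt19, numbered 5, 6 and 8). The study made polyclonal lines and also clones by limiting dilution, and the labels do not give which of these, or which guide, the sequenced tumors carried. Each tumor also holds stroma, vessels and immune cells of the host, whose own *Krt19* was not edited.

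A desmosome is an adhesive junction. Its cadherins, the desmogleins and desmocollins, meet those of the next cell, and their tails bind plakoglobin and the plakophilins, which in turn bind desmoplakin. Desmoplakin holds the keratin filaments. Other plakins join the same filaments to hemidesmosomes, to actin and microtubules, or to the cornified envelope of stratified epithelium. Simple epithelia, such as pancreatic ducts, use *Dsg2* and *Dsc2* as their desmosomal cadherins, whereas the other desmogleins and desmocollins belong mainly to stratified epithelia.

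The sequence tables from RefSeq (GRCm38.p6) held promoters for 2 of the 10 genes, *Dsp* and *Jup*. They are shown because these genes encode the keratin anchor and the protein it is tethered through, and because their transcripts differed between the groups in opposite directions, as given further on. Each sequence is the 250 bases before the RefSeq start site, read 5′ to 3′ along the gene. The window of *Dsp* is chr13:38151044-38151293 (plus strand) and that of *Jup* is chr11:100397791-100398040 (minus strand). The start of *Jup* in the GENCODE positions given further on is 100397763, so its window does not adjoin that start. Capitals mark GC boxes (GGGCGG or its complement CCGCCC) and CCAAT boxes.
Dsp: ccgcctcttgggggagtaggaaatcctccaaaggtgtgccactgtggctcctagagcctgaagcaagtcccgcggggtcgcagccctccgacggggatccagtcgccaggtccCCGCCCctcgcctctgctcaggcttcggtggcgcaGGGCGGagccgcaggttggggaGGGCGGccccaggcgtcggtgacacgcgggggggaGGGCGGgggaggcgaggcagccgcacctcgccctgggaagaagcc
Jup: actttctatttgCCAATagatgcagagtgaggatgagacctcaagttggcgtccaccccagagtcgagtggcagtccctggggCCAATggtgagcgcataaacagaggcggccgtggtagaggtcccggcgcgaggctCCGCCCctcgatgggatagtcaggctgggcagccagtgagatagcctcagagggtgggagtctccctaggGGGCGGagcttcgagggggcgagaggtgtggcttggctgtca
The window of *Dsp* held 4 GC boxes, no CCAAT box, 22 CG pairs and 72.4% G and C. The window of *Jup* held 2 GC boxes, 2 CCAAT boxes, 13 CG pairs and 62.0% G and C. None of the capitalised motifs overlapped another. Of all 32851 promoter windows, cut to the same length, 32.7% held a GC box and 33.8% a CCAAT box on either strand, and the median G and C content was 52.4%. Neither window held CACCTG (present in 17.2% of windows), TGANTCA (6.75%), AACCNGTT (1.79%) or TATAAA (12.4%), again on either strand. A match of letters is a description and not a binding site.

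Values are normalized read counts, that is, the reads of a gene after correction for library size by a size factor. Errors after ± are SDs over the tumors of a group. Depth was 40781199 to 44972100 reads per library, and 3 reads, taken as the floor of detection, were worth 2.74 to 3.47. Differences were tested with limma on log2(value + 1) across 21322 genes, a gene was called where the Benjamini-Hochberg adjusted p was under 0.05, and a log2 fold change is always sgKrt19 minus sgScramble on this log2 scale, which understates changes of low values. Of the genes tested, 34.0% were called. The targeted gene was examined first: *Krt19* stood at 25574, 21179, 27618 and 17841 in sgScramble tumors and at 1606, 1960.3 and 2470.0 in sgKrt19 tumors, which is 8.73% of the sgScramble mean (log2 fold change −3.52, SE 0.183, adjusted p = 1.74e-05). Genes of some other cell types of the tumor differed between the groups as well. The summed level of 11 skeletal muscle genes was 302 to 3084 in sgScramble and 23316 to 33501 in sgKrt19 tumors, all 11 called higher. Sums of 6 leukocyte genes were 8506 to 11575 against 15510 to 20517, and those of 9 endothelial genes 4847 to 6656 against 7190 to 9283. Of these, 6 of 6 leukocyte and 5 of 9 endothelial genes were called higher, against 17.9% of all genes. Sums of 8 fibroblast genes overlapped (100748 to 234927 against 116668 to 132278), and 0 of 8 were called. Those of 4 adipocyte genes overlapped too (341 to 816 against 580 to 660), and 0 of 3 tested were called. Most of the adipocyte sum came from 1 gene, *Cidec* (mean 448 in sgScramble and 577 in sgKrt19 tumors). For 12 genes of skin keratinocytes, which are rich in desmosomes and lie over an s/c tumor, the sums were 363 to 580 and 484 to 717, with *Krt1* and *Calml3* at or under the floor in every tumor. Of these 12, 7 were tested and 3 were called, against 34.0% of all genes. *Lgals7* (log2 fold change 1.77, adjusted p = 0.0038) and *Krt15* (1.23, adjusted p = 0.0192) were higher and *Lor* (−1.51, adjusted p = 0.0262) was lower. In the 7 fits that left out 1 tumor, *Lgals7* was called in 7, *Krt15* in 4 and *Lor* in 3. The part of these cells in the results on desmosomal genes was not tested. In bulk tumors, fewer cells of a type and less RNA per cell cannot be told apart.

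The 10 genes did not move as a block. *Dsp* and *Dsg2* were higher in sgKrt19 tumors (2 of 10, against 17.9% of all genes tested), and *Jup*, *Pkp1*, *Dsc2* and *Evpl* were lower (4 of 10, against 16.0%). The remaining 4, *Pkp2*, *Pkp3*, *Plec* and *Ppl*, were not called. The median log2 fold change of the 10 was −0.25, and that of all genes tested was 0.0072. In each of the 6 genes called, the 2 groups of tumors did not overlap, which held for 41.1% of all genes tested (21.7% with sgKrt19 above and 19.3% with sgKrt19 below). In the 4 genes that were not called, they did. edgeR and DESeq2, run on the reads recovered from the values, called the same 6 (33.7% of all genes called by edgeR and 37.4% by DESeq2). A limma test against a 1.5-fold change called 3, *Dsp*, *Dsg2* and *Pkp1* (6.27% of all genes). The calls depended on the scale. Each library was next set to the same mean log2 level of 10 epithelial reference genes. Limma then called 0 of the 10 desmosome and plakin genes, against 3.74% of all genes tested. At an unadjusted limma p under 0.05 were 4 of the 10, against 2214 of all 21322 genes tested. On that scale the log2 fold changes of the 6 genes kept their signs, at 1.16 for *Dsp*, 1.17 for *Dsg2*, −0.52 for *Jup*, −1.41 for *Pkp1*, −1.79 for *Dsc2* and −0.72 for *Evpl*. The mean log2 level of the reference genes itself spanned 1.30 within sgScramble and 1.31 within sgKrt19 tumors before this scaling. Its part in the loss of calls was not tested. With scaling by total reads, which moved the median of all genes to −0.21 and the share of calls that were higher from 52.8% to 27.5%, the same 6 were called and *Pkp2* (−0.29, adjusted p = 0.0481) and *Ppl* (−0.63, adjusted p = 0.0304) were called lower as well, against 37.1% of all genes in either direction and 26.9% lower.

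**Figure D1:**
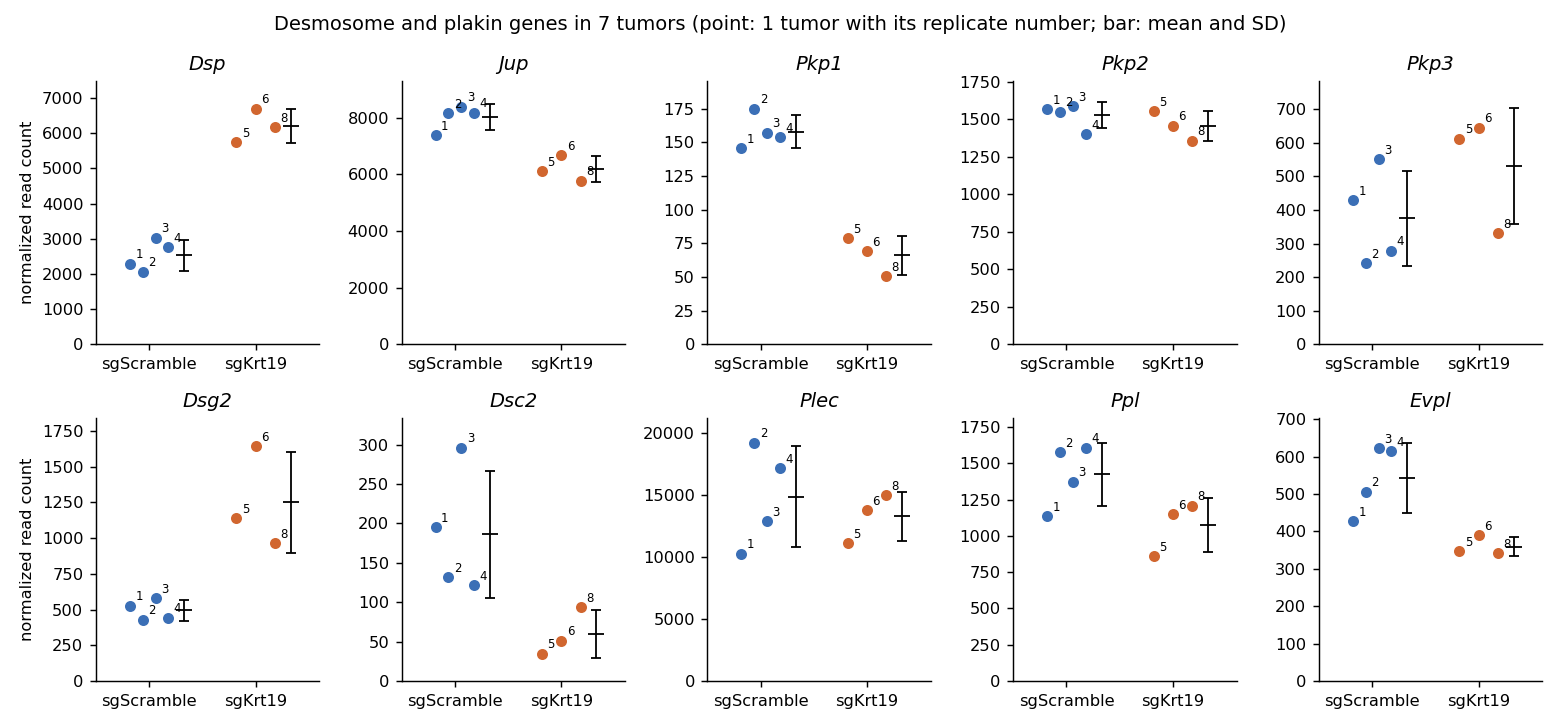
Normalized read counts of the 10 desmosome and plakin genes in each tumor, 1 panel per gene, with sgScramble (n = 4) and sgKrt19 (n = 3) tumors side by side and the group mean ± SD. The groups stand apart in *Dsp*, *Dsg2*, *Jup*, *Pkp1*, *Dsc2* and *Evpl*, and overlap in the other 4.

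The transcript of desmoplakin, the plakin that binds keratin at the desmosome, was higher in sgKrt19 tumors and had the lowest adjusted p of the 10 genes. *Dsp* (ENSMUSG00000054889.10, chromosome 13, 38151294 to 38198577, plus strand, GRCm38 as for all positions here) had normalized read counts of 2290, 2062, 3026 and 2755 in sgScramble and 5747, 6700.1 and 6174 in sgKrt19 tumors. The lowest sgKrt19 tumor was above the highest sgScramble tumor by a wide margin. The means were 2533 ± 437 and 6207 ± 478, a ratio of 2.45 (log2 fold change 1.31, SE 0.142, 95% CI 0.99 to 1.62, adjusted p = 0.000185). Leaving out any 1 tumor gave log2 fold changes of 1.21 to 1.40, all called. A gene model of unproven status on the opposite strand, Gm10129, shares 5.17% of the exon bases of *Dsp* and had a mean normalized read count of 11.9.

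Transcripts of the desmosomal cadherins of simple epithelia moved in opposite directions. *Dsg2*, desmoglein 2 (chromosome 18, 20558074 to 20604521, plus strand), had normalized read counts of 528, 428, 580.0 and 441 in sgScramble and 1139, 1645 and 965 in sgKrt19 tumors. Every sgKrt19 tumor was higher than every sgScramble tumor, and tumor 6 was the highest. The means of 494 ± 72.2 and 1249.7 ± 353 gave a ratio of 2.53 (log2 fold change 1.31, SE 0.188, 95% CI 0.89 to 1.73, adjusted p = 0.000744). *Dsc2*, desmocollin 2, lies in the same cluster of desmosomal cadherin genes (chromosome 18, 20030633 to 20059554, minus strand). It stood at 195, 131, 296 and 121 in sgScramble but at 34.7, 51.0 and 93.5 in sgKrt19 tumors. The sgScramble tumors themselves differed widely, yet all 4 lay above the 3 sgKrt19 tumors. The sgKrt19 mean of 59.7 ± 30.3 was 32.1% of the sgScramble mean of 186 ± 80.2 (log2 fold change −1.65, SE 0.376, adjusted p = 0.00868). Both calls held without any 1 tumor, with log2 fold changes of 1.09 to 1.48 for *Dsg2* and −2.02 to −1.32 for *Dsc2*.

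The ratio of *Dsg2* to *Dsc2* was 1.96 to 3.63 in sgScramble tumors and 10.3 to 32.8 in sgKrt19 tumors. Its log2 value differed by 2.96 between the groups, from 1.49 ± 0.387 to 4.45 ± 0.945 (exact two-sided permutation test, p = 0.0571, n = 4 and 3, adjusted p = 0.0857 over the 6 ratios examined). With 4 and 3 tumors there are 35 splits, and 0.0571 is the smallest p the design allows. How often ratios of other gene pairs separate the groups was not computed, so no background can be given for the 6 ratios. Of single genes tested, 41.1% separated the groups. The antisense gene Gm16090 shares 3.99% of the exon bases of *Dsg2*, with a mean normalized read count of 33.3.

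The remaining desmogleins and desmocollins were next to absent. *Dsg1a*, *Dsg1b*, *Dsg1c*, *Dsg4*, *Dsc1* and *Dsc3* had at most 3 reads in any tumor. *Dsg3*, the desmoglein of basal keratinocytes, had 3, 1, 5 and 0 reads in sgScramble and 10, 14 and 1 reads in sgKrt19 tumors, which was too low to test. Of the 9 other desmosome genes listed, the 2 that could be tested were both called higher, against 17.9% of all genes. *Perp*, a tetraspan membrane protein needed for desmosomes in stratified epithelium, rose from normalized read counts of 1492, 983, 1724 and 1082 to 3937, 3526 and 3922 (log2 fold change 1.56, SE 0.184, adjusted p = 0.000274). *Pkp4*, an armadillo protein found at desmosomes and at adherens junctions, rose from 4612 to 5162 in sgScramble to 7649 to 8499 in sgKrt19 tumors (log2 fold change 0.69, SE 0.101, adjusted p = 0.000845).

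Plakoglobin and the plakophilins link the cadherin tails to desmoplakin, and of these genes *Jup* and *Pkp1* were called lower. *Jup* (chromosome 11, 100368958 to 100397763, minus strand) encodes plakoglobin, a close relative of β-catenin that serves in desmosomes and in adherens junctions. Its normalized read counts were 7383, 8164, 8391 and 8187 in sgScramble and 6122, 6677 and 5773 in sgKrt19 tumors. The groups did not overlap, but the sgKrt19 mean of 6191 ± 456 was still 77.1% of the sgScramble mean of 8031 ± 444 (log2 fold change −0.38, SE 0.105, 95% CI −0.61 to −0.14, adjusted p = 0.0207). The call was lost without sgScramble 2 (adjusted p = 0.0625), sgScramble 3 (0.0528), sgKrt19 5 (0.0507) or sgKrt19 8 (0.0771), with log2 fold changes between −0.43 and −0.33 throughout.

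*Ctnnb1*, which encodes β-catenin, did not pass the test (log2 fold change −0.05, 95% CI −0.34 to 0.23, adjusted p = 0.765). The ratio of *Jup* to *Ctnnb1* was 0.199 to 0.236 in sgScramble and 0.163 to 0.185 in sgKrt19 tumors, a log2 difference of −0.32 that reached the smallest p of the design (exact permutation test, p = 0.0571, adjusted p = 0.0857).

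Of *Pkp1*, *Pkp2* and *Pkp3*, 1 was called. *Pkp1* (chromosome 1, 135871395 to 135919207, minus strand), the plakophilin of stratified epithelium, had normalized read counts of 146, 175, 157 and 154 in sgScramble and 78.6, 69.0 and 50.4 in sgKrt19 tumors. These 2 ranges were narrow and far apart. The sgKrt19 mean of 66.0 ± 14.3 was 41.8% of the sgScramble mean of 158 ± 12.3 (log2 fold change −1.27, SE 0.197, adjusted p = 0.00118), and without any 1 tumor the log2 fold change was −1.40 to −1.09 and the gene was called. *Pkp2* (chromosome 16, 16213318 to 16272712, plus strand), the plakophilin of simple epithelia and heart muscle, had 1567, 1550.3, 1587 and 1401 in sgScramble and 1551, 1455 and 1357 in sgKrt19 tumors. The values overlapped, and the 95% CI of the log2 fold change was −0.30 to 0.16 (estimate −0.07, adjusted p = 0.616). The ratio of *Pkp1* to *Pkp2* fell from 0.0931 to 0.113 in sgScramble to 0.0372 to 0.0507 in sgKrt19 tumors, a log2 difference of −1.20 (exact permutation test, p = 0.0571, adjusted p = 0.0857).

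*Pkp3* (chromosome 7, 141078218 to 141090510, plus strand), the plakophilin found in most epithelia, varied mostly from tumor to tumor. Its normalized read counts were 428, 242, 551 and 278 in sgScramble and 613, 645 and 331 in sgKrt19 tumors. Tumors 2, 4 and 8 were the lowest of their groups, and the difference between groups was not called (log2 fold change 0.51, 95% CI −0.18 to 1.21, adjusted p = 0.219). The ratio of *Pkp3* to *Pkp2* overlapped between the groups (log2 difference 0.58, exact permutation test, p = 0.171, adjusted p = 0.206).

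The same 3 tumors were the lowest of their groups for *Epcam*, an epithelial adhesion molecule. Its normalized read counts were 1273, 376, 1588 and 402 in sgScramble and 1247, 1169 and 322 in sgKrt19 tumors. A score over 10 epithelial reference genes, their mean log2(value + 1), also placed tumors 2, 4 and 8 below the others, at 8.56, 7.72, 8.91 and 7.61 in sgScramble and 8.41, 8.97 and 7.66 in sgKrt19 tumors. It spanned 1.30 within sgScramble and 1.31 within sgKrt19 tumors, more than the 0.14 by which the group means differed (exact permutation test, p = 0.914). Some genes of the score differed all the same. Of the 10, 3 were called higher and 0 lower, against 17.9% and 16.0% of all genes tested. The 3 were *Prss8* (log2 fold change 1.41, adjusted p = 0.0041), *Spint1* (0.72, adjusted p = 0.0253) and *Cdh1* (0.55, adjusted p = 0.0101). *Spint1* was called in 3 of the 7 fits that left out 1 tumor, and was not called by total reads (limma adjusted p = 0.0834). The summed normalized read counts of the 10, most of which came from *Cdh1*, did not overlap, at 28397 to 31070 in sgScramble against 37535 to 46217 in sgKrt19 tumors. Each of the 10 genes was set against this score. *Dsg2* (log2 difference 1.17), *Pkp1* (−1.41) and *Dsc2* (−1.79) still separated the groups completely (exact permutation test, p = 0.0571, the smallest of the design). *Dsp* (1.16, exact permutation test, p = 0.114), *Evpl* (−0.72, exact permutation test, p = 0.229) and *Jup* (−0.52, exact permutation test, p = 0.343) overlapped. *Pkp2*, *Pkp3*, *Plec* and *Ppl* overlapped too. These p-values were not adjusted over the 10 genes. The share of all genes that separated the groups on this scale was not computed, so no background can be given.

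**Figure D2:**
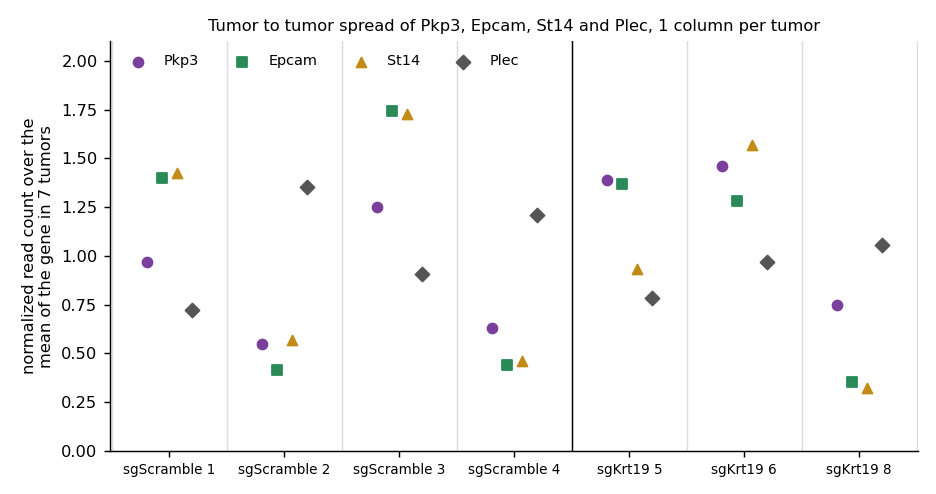
Normalized read counts of *Pkp3*, *Epcam*, *St14* and *Plec* in each of 7 tumors, divided by the mean of the gene over the 7 tumors, with sgScramble tumors left of the line and sgKrt19 tumors right of it. *Pkp3*, *Epcam* and *St14*, a protease of epithelial cells, are lowest in tumors 2, 4 and 8, where *Plec* is high for its group.

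Among the plakins, the transcript of plectin was abundant and did not separate the groups. *Plec* (chromosome 15, 76170974 to 76232574, minus strand) encodes a linker of keratins, other intermediate filaments, hemidesmosomes and actin that is made in most cell types. Its normalized read counts were 10231, 19179, 12868 and 17122 in sgScramble and 11076, 13728 and 14961 in sgKrt19 tumors. The sgScramble range enclosed the sgKrt19 range (log2 fold change −0.13, 95% CI −0.60 to 0.34, adjusted p = 0.647), and without sgScramble 2 the log2 fold change was 0.0044. The same-strand gene *Parp10* shares 1.13% of the exon bases of *Plec*.

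Periplakin and envoplakin pair with each other, and both are precursors of the cornified envelope. *Evpl* (chromosome 11, 116220559 to 116238077, minus strand) had normalized read counts of 427, 506, 623 and 615 in sgScramble and 347, 389 and 341 in sgKrt19 tumors. The groups did not overlap, and the sgKrt19 mean of 359 ± 26.1 was 66.2% of the sgScramble mean of 543 ± 93.7 (log2 fold change −0.58, SE 0.157, adjusted p = 0.0182). The call was lost without sgScramble 4 (adjusted p = 0.0508), sgKrt19 5 (0.0547) or sgKrt19 8 (0.0577). *Ppl* (chromosome 16, 5086291 to 5132421, minus strand) had 1138, 1576, 1375 and 1609 in sgScramble and 860.1, 1149 and 1209.8 in sgKrt19 tumors. Only sgScramble 1 reached into the sgKrt19 range, and the difference was not called (log2 fold change −0.41, 95% CI −0.77 to −0.055, adjusted p = 0.0712), although without sgScramble 1 it was (−0.51, adjusted p = 0.0274). The ratio of *Ppl* to *Evpl* overlapped, with a log2 difference of 0.17 (exact permutation test, p = 0.4, adjusted p = 0.4).

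Of the 3 other plakins listed, 1 was called, against 34.0% of all genes. *Eppk1*, epiplakin, a protein built of plakin repeats that binds keratins, had normalized read counts of 923, 1695, 1329 and 1516 in sgScramble and 2053, 2836 and 3292 in sgKrt19 tumors (log2 fold change 1.01, SE 0.216, adjusted p = 0.00651). Its repeats are close copies of each other, so its counts depend on how reads with several matches were treated. *Dst*, which encodes the plakin BP230 and longer isoforms, was not called (log2 fold change −0.50, 95% CI −1.10 to 0.09, adjusted p = 0.166), nor was *Macf1*, a linker of actin and microtubules (−0.28, 95% CI −0.72 to 0.16, adjusted p = 0.296). *Dst* was highest in sgScramble 2 and 4, at 9797 and 9963, against 4553 and 5079 in sgScramble 1 and 3. The ratio of *Dsp* to *Plec* was 0.108 to 0.235 in sgScramble and 0.413 to 0.519 in sgKrt19 tumors, a log2 difference of 1.44 (exact permutation test, p = 0.0571, adjusted p = 0.0857).

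**Figure D3:**
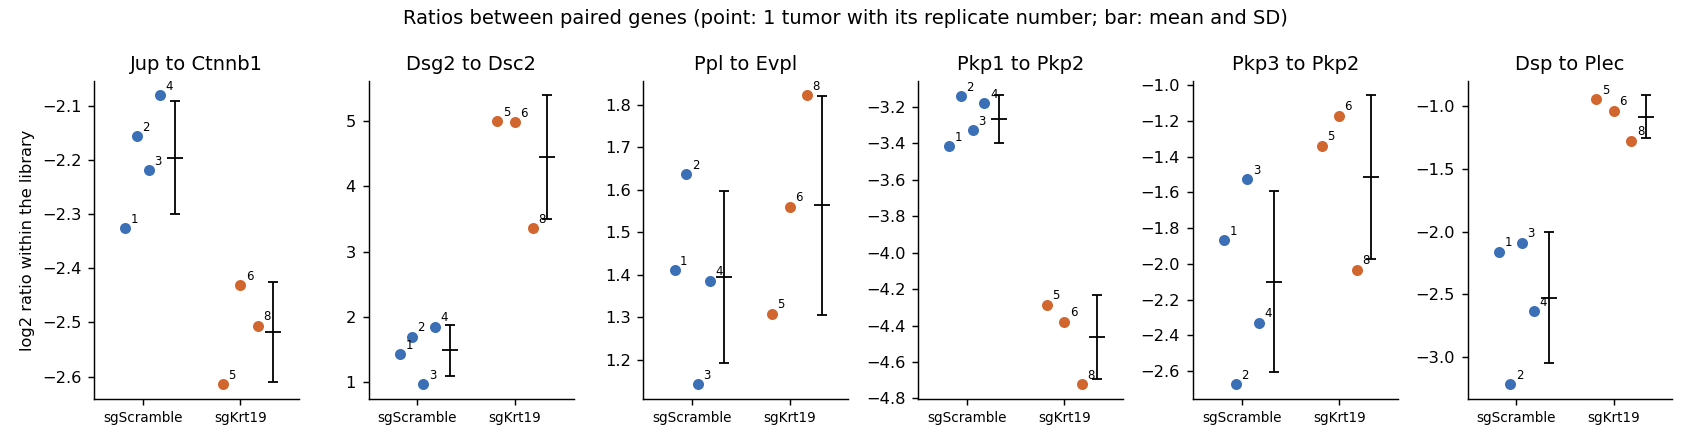
Log2 ratios of the normalized read counts of 6 pairs of genes in each tumor, with the group mean ± SD, for sgScramble (n = 4) and sgKrt19 (n = 3) tumors. The groups stand apart in *Jup* to *Ctnnb1*, *Dsg2* to *Dsc2*, *Pkp1* to *Pkp2* and *Dsp* to *Plec*, and overlap in *Ppl* to *Evpl* and *Pkp3* to *Pkp2*. The share of other gene pairs that stand apart was not computed.

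Levels of different genes were compared as normalized read counts per kilobase of exon. In sgScramble tumors *Jup* was the highest at 1248 ± 69.0, followed by *Plec* at 820 ± 224, with no overlap between tumors. *Pkp2* (285 ± 15.8), *Dsp* (262 ± 45.3) and *Ppl* (207 ± 31.5) came next, each overlapping its neighbour in this order. *Pkp3* (104 ± 39.4), *Evpl* (85.0 ± 14.7), *Dsg2* (59.8 ± 8.74), *Dsc2* (35.2 ± 15.2) and *Pkp1* (31.4 ± 2.44) followed below a gap, again each overlapping its neighbour. *Dsg2* and *Dsc2*, the cadherins, were among the 3 lowest on this scale.

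In sgKrt19 tumors *Dsp* stood next after *Jup* and *Plec* at 643 ± 49.4 per kilobase and overlapped *Plec* (732 ± 109.6), with *Jup* at 962 ± 70.9. *Pkp2* followed at 271 ± 18.2. *Ppl* (156 ± 27.1), *Dsg2* (151 ± 42.7) and *Pkp3* (146 ± 47.8) overlapped each other, so that *Dsg2* was no longer below *Evpl* (56.2 ± 4.09). *Pkp1* (13.1 ± 2.85) and *Dsc2* (11.3 ± 5.75) were the lowest and also overlapped.

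**Figure D4:**
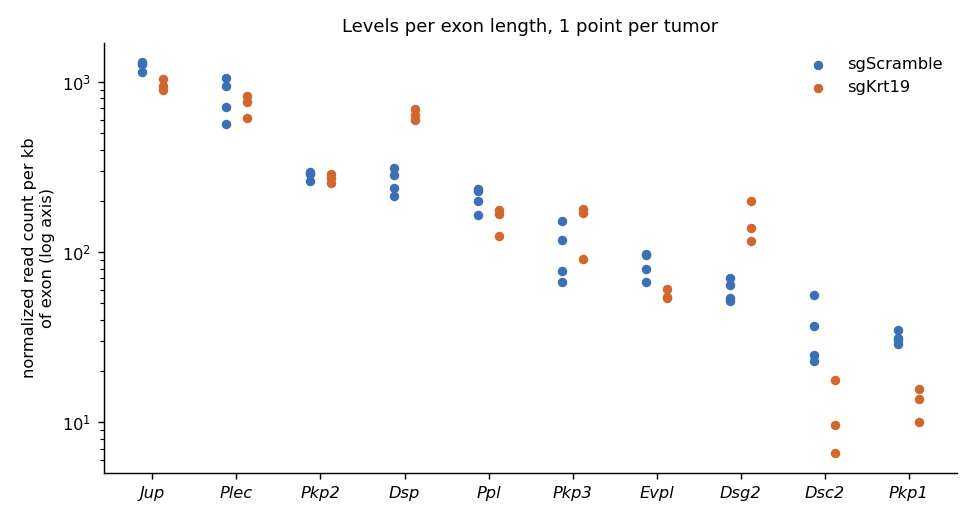
Normalized read counts per kilobase of exon of the 10 genes on a log axis, in sgScramble (n = 4) and sgKrt19 (n = 3) tumors, 1 point per tumor. *Jup* and *Plec* lead in both groups, *Dsp* moves up to the range of *Plec* in sgKrt19 tumors, and *Dsc2* and *Pkp1* are lowest.

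The partners of these proteins gave a mixed picture. Of 11 intermediate filament proteins, 9 were tested, 4 were called higher and 1, *Krt19*, lower (median log2 fold change 0.35, with 34.0% of all genes called). *Krt8* and *Krt18*, the keratin pair of simple epithelia, were higher by log2 fold changes of 0.91 (SE 0.174, adjusted p = 0.00359) and 0.97 (SE 0.178, adjusted p = 0.0028). *Des*, the desmin of muscle, had the largest fold change of the list (5.25, adjusted p = 0.000485), next to the skeletal muscle sums given above. Of 7 hemidesmosome genes, 6 were tested and 0 were called by limma (median 0.19), edgeR or DESeq2, with 0 at an unadjusted p under 0.05. Of all 21322 genes tested, limma called 34.0%, and 9796 had an unadjusted limma p under 0.05. Among the 6 hemidesmosome genes was *Itgb4*, the integrin chain that plectin binds (−0.25, 95% CI −0.58 to 0.08, adjusted p = 0.218).

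Adherens junctions, the actin-bound counterpart of desmosomes, had 1 of 11 genes called higher and 2 lower (median −0.05), against 17.9% and 16.0% of all genes. *Cdh1*, E-cadherin, rose from normalized read counts of 24121 to 27150 (lowest and highest of 4) to 34406 to 42053 (log2 fold change 0.55, SE 0.131, adjusted p = 0.0101). *Cdh3*, P-cadherin, stood at 910.3, 875, 1107 and 1379 in sgScramble and at 85.5, 126 and 44.1 in sgKrt19 tumors, which is 7.98% of the sgScramble mean (log2 fold change −3.73, SE 0.307, adjusted p = 4.69e-05). The other gene called lower was *Nectin3* (−0.73, SE 0.118, adjusted p = 0.0014).

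Of 10 partners of the cornified envelope, 6 were tested, 2 were called higher and 1 lower (median 0.19), again against 17.9% and 16.0% of all genes. They were *Ivl*, involucrin (1.57, SE 0.361, adjusted p = 0.0089), *Sprr1a* (0.97, SE 0.257, adjusted p = 0.0166) and *Lor*, loricrin (−1.51, SE 0.447, adjusted p = 0.0262). The values of *Lor* were 32.5, 16.8, 33.8 and 15.8 in sgScramble and 4.0 to 13.9 in sgKrt19 tumors, close to the floor. *Lor* was called in 3 of the 7 fits that left out 1 tumor. Of 7 regulators of desmosomes, which include *Prkca*, *Adam17* and *Grhl1*, 0 were called by limma (median −0.20), edgeR or DESeq2, with 1, *Adam17*, at an unadjusted p under 0.05. Over all 21322 genes tested, limma called 34.0%, and 9796 had an unadjusted limma p under 0.05.

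**Figure D5:**
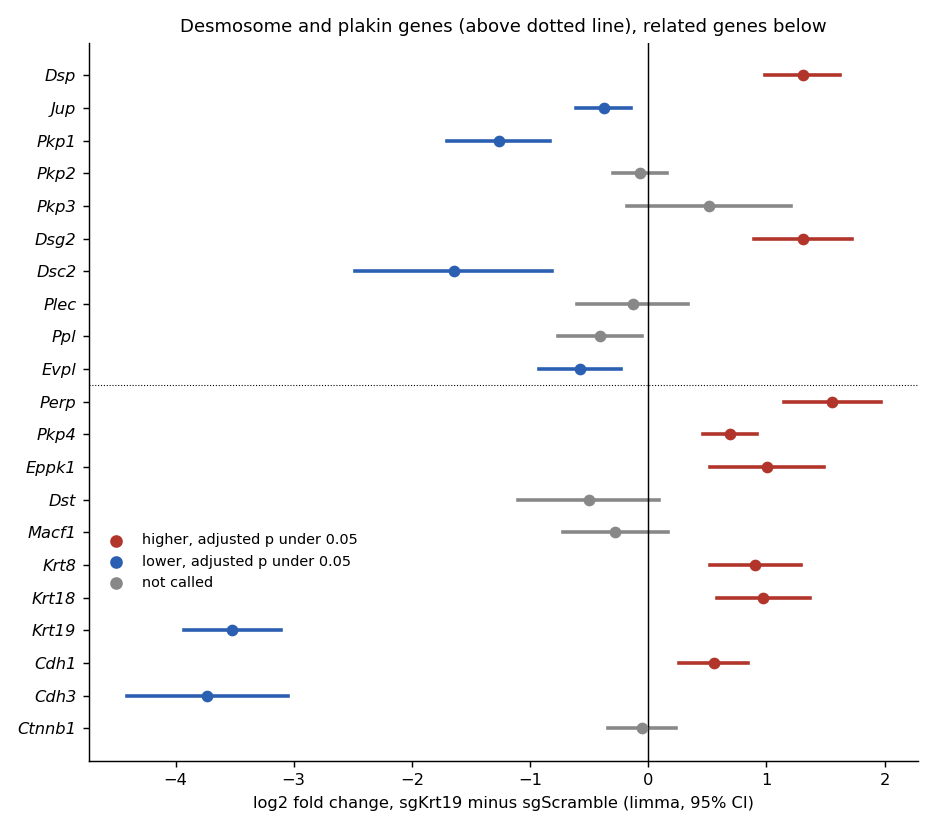
Log2 fold changes (sgKrt19 minus sgScramble, limma) with 95% CIs of the 10 desmosome and plakin genes, above the dotted line, and of 11 related genes below it, coloured by the call. *Dsp* and *Dsg2* lie to the right of 0 with *Perp*, *Pkp4*, *Eppk1*, *Krt8*, *Krt18* and *Cdh1*, and *Cdh3* and *Krt19* lie farthest to the left.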

How the data were processed

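The authors deposited 1 table with a column for each of the 7 tumors, whose signal is the read count of a gene after division by a library size factor. Libraries were made from 4 μg of total RNA with a strand-keeping kit and 12 PCR cycles, and read for 76 bases. The submitters' processing notes name mm10. The aligner and the counting program are not given in the sources used here. Whole reads were recovered for 100% of values in each library (tolerance 0.05 reads), 40781199 to 44972100 per library, and floors of 3 reads cover counting error only, whereas the 95% CIs come from the spread between tumors. Positions, exons and overlaps came from GENCODE M21 (GRCm38), which holds 97.55% of the identifiers.

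Genes that reached a value of 10 in 3 or more libraries were fitted with limma 3.58.1 (lmFit, eBayes with a trend) on log2(value + 1), with the group as the only term. Log2 ratios were compared by exact two-sided permutation tests. Alternatives were other pseudocounts, filters and scalings, a test against a 1.5-fold change (treat), edgeR 4.0.16 and DESeq2 1.42.0 on recovered reads, and leaving out each tumor. The limma script was tested on simulated data.

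A further allele of the tumor line is not reported here. The labels name separate samples but not separate animals, and give no batch, so p-values measure the spread between these samples, part of which may be technical. The 10 genes and all gene lists were chosen with earlier results of these data known. Beside the 10, the genes named were the other desmosome genes and plakins, *Krt19*, *Krt8*, *Krt18*, *Ctnnb1*, *Cdh1*, *Itgb4*, *Epcam*, and in further lists the called genes with the largest and smallest log2 fold change. The exceptions were the skeletal muscle, leukocyte and endothelial lists, of which no gene was named. *Nectin3*, *Sprr1a*, *St14*, *Spint1*, *Krt15*, *Cidec* and the regulators were named after their values were seen.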

Additional observations from a re-analysis of the deposited data

Results flagged for a closer look

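Among 47 results searched for a sgScramble tumor far from the other 3, 2 were found, both in sgScramble 3, and chance gives about 1 in 20. The value of *Des* there was 753 normalized read counts, with 94.6 as the next highest, a gap of 0.949 of the range. The summed level of the 11 skeletal muscle genes there was 3084, a gap of 0.978 of the range. None of the 10 desmosome and plakin genes had such a tumor. Groups of 3 were not searched.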

How the results depend on the processing

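No paired analysis was possible because the groups share no replicate number. In the 17 settings run, *Dsp*, *Dsg2*, *Jup*, *Pkp1*, *Dsc2* and *Evpl* kept their signs. Scaled to the epithelial reference, 797 genes were called (385 higher, 412 lower), with 0 higher and 0 lower among the 10, 0 other desmosome genes, 0 other plakins, 2 intermediate filament proteins, 1 adherens junction gene and 0 cornified envelope partners. Tested against a 1.5-fold change, 1336 were called (728 higher, 608 lower), with 2 higher (*Dsp*, *Dsg2*) and 1 lower (*Pkp1*) among the 10, 1 other desmosome gene, 0 other plakins, 2 intermediate filament proteins, 1 adherens junction gene and 0 cornified envelope partners, and *Dsc2* had an adjusted p of 0.109 (limma treat). By total reads, 2177 were higher and 5727 lower, with 1 desmosome regulator. Leaving out each tumor gave 2481 to 4103 genes higher (2481 without sgKrt19 5) and 2232 to 3611 lower (2232 without sgScramble 2), 2 to 5 of the 10 lower (2 without sgKrt19 5 or 8), 1 to 2 other plakins (2 without sgScramble 1) and 0 to 1 hemidesmosome genes (1 without sgScramble 1 or sgKrt19 8). Among the 10 genes, *Ctnnb1* and *Epcam*, signs reversed for values that were not called, *Plec* (−0.30 to 0.0044 without 1 tumor, above 0 without sgScramble 2), *Ctnnb1* (−0.096 to 0.000205, above 0 without sgKrt19 8) and *Epcam*, at −0.15 by total reads, −0.079 by the epithelial reference, −0.017 by edgeR, −0.0098 by DESeq2 and −0.28 to 0.70 without 1 tumor (−0.26 without sgScramble 2, −0.23 without sgScramble 4, −0.28 without sgKrt19 5, −0.23 without sgKrt19 6). Of other genes named, *St14* (−0.20) ran from −0.71 to 0.43 without 1 tumor, and *Prkca* (0.00097) was −0.046 by edgeR and −0.22 by total reads. Relative to the epithelial score, *Pkp2* was −0.51 to 0.097 without 1 tumor (0.097 without sgKrt19 6), and *Plec* was −0.71 to 0.021 (0.021 without sgScramble 2, 0.0033 without sgScramble 4 and 0.0047 without sgKrt19 6). The cause was not tested. The depth of the tumors limits *Dsc2* (30 reads in sgKrt19 5) and the stratified cadherins, and the 3 and 4 tumors limit the exact tests.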
